A study of Mus musculus with 39 samples.

Results

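The spleens compared here came from mice labelled wild type that had received PCB-153 or only the vehicle. They were taken by their sample titles: 5 libraries are labelled wild type and PCB-153, and 4 are labelled wild type and DMSO (replicates 1, 3, 4 and 5). These 9 libraries belong to 19 spleen libraries, and the series holds 39 libraries of spleen and liver. Of the 54735 genes in the spleen table, the 19058 with a mean normalised read count of at least 10 over the 19 spleen libraries were tested.

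The exposed group was C57BL/6, labelled wild type, given PCB-153 around birth at about 54 µg per kg per day and killed at 4 weeks of age. Its controls were C57BL/6 mice of the same age and labelled genotype that received DMSO. A second pair of groups, labelled SXR knockout, had 5 spleens after PCB-153 and 5 after DMSO. Its values are set beside those of wild type. It also entered the minimum mean and the shared model fits. Its spread is therefore part of the standard errors, intervals and p-values given for wild type. No group without DMSO or PCB-153 is among the samples, and the labels give neither sex nor litter. Xist, the transcript of the inactive X chromosome, was at 4.7 to 14.4 normalised reads in the PCB-153 spleens and at 2.2 to 8.31 in the vehicle spleens. The Y-linked gene Ddx3y was at 1325 to 2070 after PCB-153 and at 1076 to 1817 after vehicle, so both groups gave the same sex-linked pattern.

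PCB-153 is a polychlorinated biphenyl with chlorines in ortho positions on both rings, one of the congeners most abundant in human tissue. Unlike dioxin-like congeners it is a poor ligand of the aryl hydrocarbon receptor, and in liver it is known for induction of drug-metabolising enzymes through the nuclear receptors CAR and SXR (also called PXR, gene Nr1i2). The spleen filters blood in its red pulp, where macrophages take up old red cells, and holds B and T lymphocytes in its white pulp. In young mice it also makes red cells, platelets and granulocytes, so that its RNA is a mixture of dividing erythroid cells, lymphocytes, myeloid cells and stroma. In such bulk samples, fewer cells of a type and less RNA per cell cannot be told apart.

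The libraries held the RNA of a spleen. Library totals were 16.1 to 29.52 M reads after PCB-153 and 17.4 to 24.03 M reads after vehicle. Haemoglobin genes took 13.4 to 17.5% of the reads after PCB-153 and 12.3 to 18.4% after vehicle, and markers of B cells (Cd79a), T cells (Cd3e), red pulp macrophages (Adgre1), granulocytes (S100a8) and platelets (Pf4) were counted in every library. The first principal component of the 9 libraries, with 22.8% of the variance, put PCB-153 replicate 1 and vehicle replicates 1 and 4 at one end (-26.7, -19.4 and -22.2) and vehicle replicates 3 and 5 at the other (21.4 and 30), while the other 4 PCB-153 libraries lay between 2.4 and 6. The vehicle libraries thus differed more among themselves than most PCB-153 libraries did. Nr1i2, the gene targeted in the knockout, had 2 reads in all PCB-153 spleens together and 3 in all vehicle spleens together, whereas the spleens labelled knockout were at 42.9 to 62.8 normalised reads. The targeted gene therefore goes against the genotype labels in spleen, and genotypes are given here as labelled.

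No gene passed the test between PCB-153 and vehicle in wild-type spleen. Under limma on log2(value + 1), 0 of 19058 genes (0.0%) had a Benjamini-Hochberg adjusted p under 0.05, and the smallest adjusted p was 0.943. An unadjusted p under 0.05 was found for 727 genes (3.81%), of which 450 had the higher mean after PCB-153 and 277 the lower; 953 would be given by chance alone at that threshold. On the recovered reads edgeR also called 0 genes, and its unadjusted p was under 0.05 for 656 (3.44%). DESeq2 on the same reads called 3 genes of 19016 (0.0158%), which are described with the pigment and pancreas genes, and had 698 (3.67%) at an unadjusted p under 0.05.

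The differences were small as well as uncalled. The median log2 fold change over all tested genes was 0.008, with a standard deviation over genes of 0.199 and a median standard error of 0.13. For 17936 genes (94.1%) the 95% interval of the difference lay within 2-fold either way, and for 14425 (75.7%) it lay within 1.5-fold. Among the 14912 genes with a mean of at least 50 normalised reads, 14745 (98.9%) lay within 2-fold. A fitted difference of over 2-fold was seen in 23 genes, 14 with the higher mean after PCB-153 and 9 with the lower, and 19 of the 23 had a mean under 50. The PCB-153 and vehicle libraries did not overlap in 264 genes (1.39%), 88 of them higher (0.462%) and 176 lower (0.923%) after PCB-153.

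**Figure D1:**
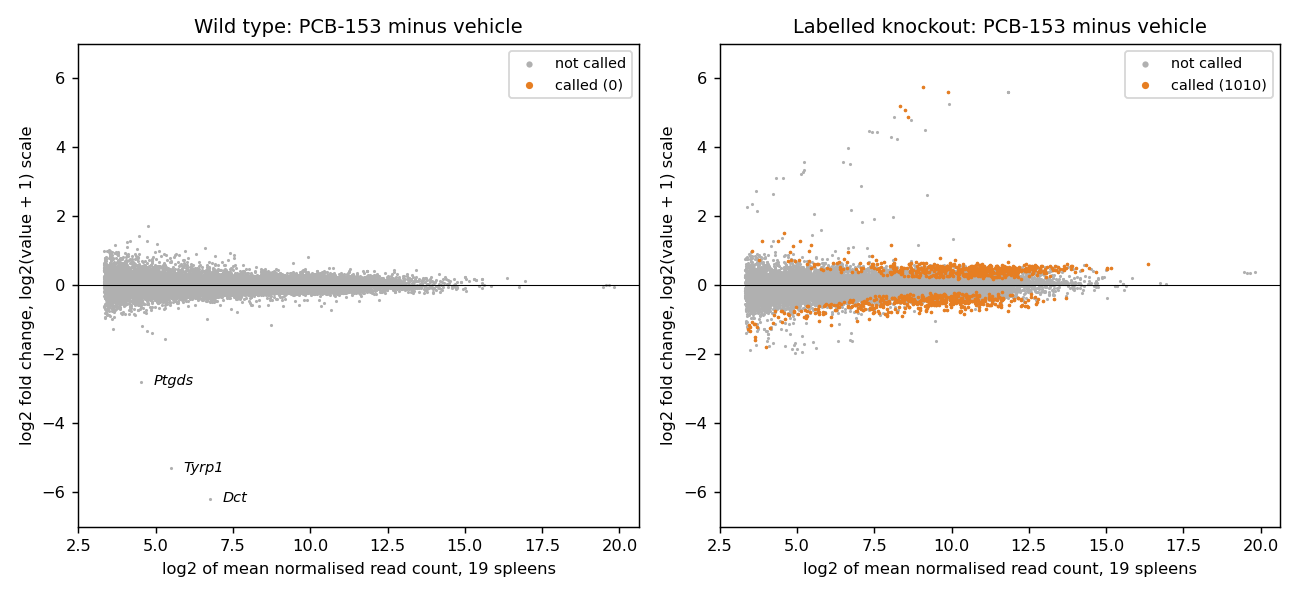
Log2 fold change of PCB-153 over vehicle (y axis, log2(value + 1) scale) against the log2 of the mean normalised read count over the 19 spleen libraries (x axis) for 19058 genes, in wild type on the left and in the labelled knockout on the right, with called genes in orange. In wild type 0 genes were called and only Dct, Tyrp1 and Ptgds lay beyond 4-fold; in the labelled knockout 1010 were called.

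Lymphocyte genes had slightly lower means after PCB-153, within the spread between libraries. Of the 20 genes of mature B cells, 18 had the lower mean and 2 the higher, with a median log2 fold change of -0.13, and 0 were called; over all tested genes 9961 had the higher mean (52.3%) and 9094 the lower. Cd79a, the signalling chain of the B cell receptor, had 5732, 5794, 6471, 5851 and 5719 normalised reads in the PCB-153 spleens and 6627, 5964, 6573 and 6687 in the vehicle spleens. The groups overlapped, because PCB-153 replicate 3 was high and vehicle replicate 3 was low, and the log2 fold change was -0.13 ± 0.13 (standard error). The B cell list as a whole lay at a mean log2 level of 11.75 to 11.84 in the PCB-153 spleens, and at 12, 11.72, 12.02 and 11.91 in vehicle replicates 1, 3, 4 and 5, so that vehicle replicate 3 was below every exposed spleen.

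Age-associated B cell genes had a median of -0.15, with 7 of 8 lower in mean, and the other B cell lists were nearer to 0. Marginal zone B cells (6 genes) had a median log2 fold change of -0.09, B cell precursors (8) of -0.08, germinal centre B cells (8) of -0.03 and plasma cells (15) of -0.1, with 0 called in each. Immunoglobulin genes took 0.498 to 0.635% of the reads after PCB-153 and 0.456 to 0.685% after vehicle. Larger fitted differences were seen in 2 heavy-chain variable segments, chosen after their values were seen. Ighv11-2 had 119, 164, 106, 123 and 160 normalised reads after PCB-153 and 101, 65.8, 67.3 and 32.6 after vehicle, and Ighv11-1 had 36.8, 51.3, 29.9, 33.7 and 37.6 after PCB-153 and 27.5, 24, 14.4 and 4.49 after vehicle. Neither segment overlapped between the groups, and the log2 fold changes were 1.09 ± 0.42 and 1.29 ± 0.5 (limma, adjusted p = 0.943 for both). Segments of this family are used by mouse B-1 cells that bind phosphatidylcholine, and the number of B cell clones behind these reads is not known, nor can reads be assigned with certainty among near-identical segments.

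T cell genes behaved alike. Of 20 genes, 18 had the lower mean after PCB-153, with a median of -0.13 and 0 called. Cd3e, a chain of the T cell receptor complex, had 559, 470, 576, 594 and 609 normalised reads after PCB-153 and 602, 570, 563 and 686 after vehicle, and the groups overlapped. Cd4, the co-receptor of helper T cells, averaged 880 ± 25.7 after PCB-153 and 920 ± 90.8 after vehicle, and Cd8a, that of cytotoxic T cells, 853 ± 99.8 after PCB-153 and 999 ± 79 after vehicle (SD, n = 5 and 4). Regulatory T cell genes had a median of 0 over 8 genes. Lag3, an inhibitory receptor of activated T cells, was the 1 gene of 12 in the activation list whose groups did not overlap, at 128, 147, 143, 158 and 136 normalised reads after PCB-153 and 159, 181, 169 and 182 after vehicle (log2 fold change -0.28 ± 0.18). Over all tested genes 0.923% were lower after PCB-153 without overlap.

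Genes of natural killer and cytotoxic cells had the lowest median of all lists with at least 5 tested genes. All 15 had a lower or equal mean after PCB-153, with a median log2 fold change of -0.25, and 4 of them (Prf1, Ncr1, Gzma and Klrg1) had an unadjusted p under 0.05, against 1.45% of all tested genes for that direction. Prf1, which encodes the pore-forming protein perforin, had 69.2, 99.7, 97, 105 and 127 normalised reads after PCB-153 and 150, 129, 132 and 133 after vehicle. Every vehicle spleen was above every exposed one, and the log2 fold change was -0.47 ± 0.16 (adjusted p = 0.943). Ncr1, an activating receptor of natural killer cells, had 71.4, 72.7, 87.9, 60.1 and 115 normalised reads after PCB-153 and 118, 97.1, 101 and 112 after vehicle, where PCB-153 replicate 5 reached into the vehicle range. Gzma, a granule protease, averaged 204 ± 31 after PCB-153 and 291 ± 63.7 after vehicle (SD, n = 5 and 4), and Tbx21, the transcription factor T-bet, averaged 118 ± 13.9 after PCB-153 and 147 ± 31.6 after vehicle. The list as a whole overlapped between the groups, at 7.16, 6.74, 6.98, 6.97 and 7.09 mean log2 units after PCB-153 and 7.5, 7.2, 7.14 and 7.22 after vehicle.

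Among the lists with at least 5 tested genes, antigen presentation was the only one whose summed level did not overlap between the groups. All 19 genes had the lower mean after PCB-153, with a median of -0.18 and a range of -0.24 to -0.03, and 0 were called. Their summed level was 130503, 126136, 134895, 138022 and 138346 normalised reads in the PCB-153 spleens and 147812, 146194, 147363 and 155041 in the vehicle spleens. H2-K1 and H2-D1, the class I heavy chains of the H2-b haplotype, and H2-Ab1, a class II chain, were the 3 members whose groups did not overlap, against 0.923% of all tested genes in that direction. H2-K1 had 15297, 14079, 15272, 16385 and 16309 normalised reads after PCB-153 and 18684, 17860, 17126 and 17847 after vehicle, a log2 fold change of -0.21 ± 0.13 (adjusted p = 0.943). H2-D1 averaged 15284 ± 925 after PCB-153 and 17282 ± 729 after vehicle, and H2-Ab1 9875 ± 382 after PCB-153 and 10851 ± 429 after vehicle (SD, n = 5 and 4). Tap2, a subunit of the peptide transporter, overlapped, at 1585 ± 130 after PCB-153 and 1817 ± 130 after vehicle. For every one of the 19 genes the 95% interval lay within 2-fold.

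**Figure D2:**
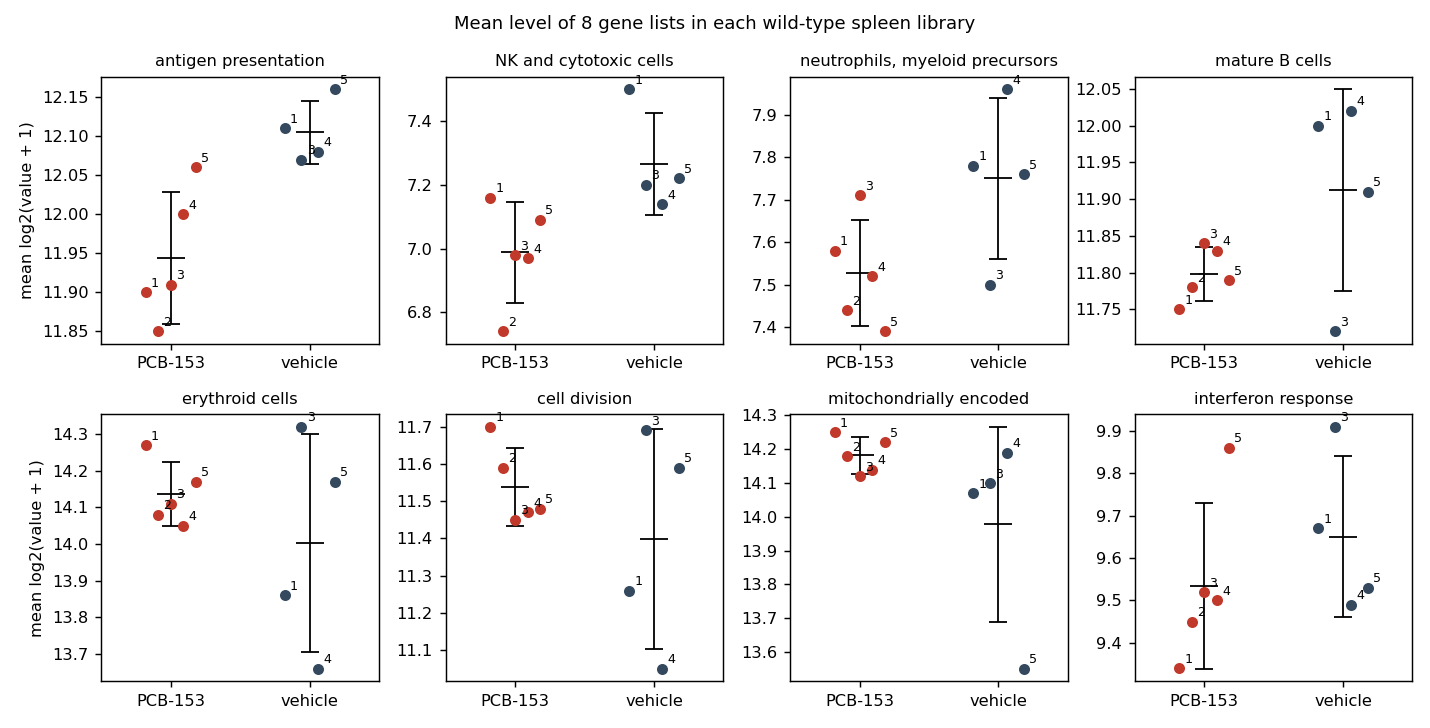
Mean log2(value + 1) of the genes of 8 lists (y axes, which do not start at 0) in each wild-type library, PCB-153 in red on the left and vehicle in dark grey on the right of each panel, with replicate numbers and the mean ± SD. Antigen presentation is the panel without overlap, at 11.85 to 12.06 after PCB-153 and 12.07 to 12.16 after vehicle; erythroid and cell division genes spread most among the 4 vehicle spleens.

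Genes of neutrophils and their precursors had a median of -0.24, with 21 of 22 members lower in mean after PCB-153 and 0 called. S100a9, a calcium-binding protein of granulocytes, had 1870, 1607, 1971, 1650 and 1628 normalised reads after PCB-153 and 2459, 1659, 2157 and 2404 after vehicle. Camp, the antimicrobial peptide cathelicidin, had 401, 363, 412, 403 and 365 after PCB-153 and 499, 404, 556 and 549 after vehicle. In both genes vehicle replicate 3 lay among the exposed spleens and the other 3 vehicle spleens lay above all of them, and the log2 fold changes were -0.3 ± 0.15 and -0.36 ± 0.18 (adjusted p = 0.943 for both). S100a8, the partner of S100a9, averaged 1009 ± 88.9 after PCB-153 and 1086 ± 131 after vehicle (SD, n = 5 and 4).

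Other myeloid lists had medians between -0.12 and 0.11. Red pulp and marginal zone macrophage genes (20 tested) had a median of -0.03, with 8 higher and 12 lower in mean and a range of -0.21 to 0.13. Adgre1, which encodes the macrophage antigen F4/80, averaged 1473 ± 104 after PCB-153 and 1626 ± 115 after vehicle, and Hmox1, the haem-degrading enzyme, 3666 ± 428 after PCB-153 and 3800 ± 137 after vehicle (SD, n = 5 and 4). Conventional dendritic cells had a median of -0.06 over 11 genes, plasmacytoid dendritic cells 0.04 over 8, and eosinophils 0.11 over 7. Among 9 monocyte genes 8 had the lower mean, the median was -0.12, and 1 gene was lower without overlap, against 0.923% of all tested genes. That gene was F13a1, the A chain of coagulation factor XIII, with 209, 191, 199, 209 and 173 normalised reads after PCB-153 and 245, 212, 302 and 277 after vehicle (log2 fold change -0.39 ± 0.13, adjusted p = 0.943). Platelet and megakaryocyte genes had the lower mean in 14 of 15 cases, with a median of -0.1, and Pf4, a platelet chemokine, averaged 557 ± 91.7 after PCB-153 and 650 ± 50.7 after vehicle.

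Erythroid and cell cycle genes leaned the other way, and here the vehicle spleens spread widely. Of 29 erythroid genes 26 had the higher mean after PCB-153, with a median of 0.15 and 0 called; all 22 cell division genes and all 22 DNA replication genes had the higher mean, with medians of 0.14 and 0.12. The cell division list lay at 11.7, 11.59, 11.45, 11.47 and 11.48 mean log2 units in the PCB-153 spleens and at 11.26, 11.69, 11.05 and 11.59 in the vehicle spleens. Vehicle replicates 1 and 4 were below every exposed spleen and vehicle replicates 3 and 5 were within the range of the exposed spleens. Mki67, a marker of dividing cells, had 42756, 35164, 30079, 36338 and 30822 normalised reads after PCB-153 and 25780, 32476, 24246 and 37136 after vehicle. Cenpe, a kinetochore motor, was the only member of these 3 lists with an unadjusted p under 0.05, at 2365 ± 429 after PCB-153 and 1832 ± 204 after vehicle (SD, n = 5 and 4; log2 fold change 0.36 ± 0.17).

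Alas2, the first enzyme of haem synthesis in red cell precursors, had 31945, 25152, 30258, 28953 and 33129 normalised reads after PCB-153 and 29425, 35916, 24971 and 36615 after vehicle. Its sign was opposite to that of most of its list, and the PCB-153 values lay inside the vehicle range. Tfrc, the transferrin receptor that brings iron into erythroblasts, averaged 18946 ± 2515 after PCB-153 and 15257 ± 3853 after vehicle (SD, n = 5 and 4). Without vehicle replicate 4 the medians were 0.03 for erythroid, 0.02 for cell division and 0.03 for DNA replication genes, and without vehicle replicate 3 they were 0.24, 0.25 and 0.22. Vehicle replicates 1 and 4 were at 13.86 and 13.66 for the mean log2 level of the erythroid list, and replicates 3 and 5 at 14.32 and 14.17.

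Genes encoded by the mitochondrial genome all had the higher mean after PCB-153, 13 of 13, with a median of 0.19. Their summed level was 401902, 392147, 376940, 378094 and 396664 normalised reads after PCB-153 and 372855, 380013, 392739 and 262338 after vehicle. Vehicle replicate 5 was far below all other libraries, and without it the median over the list was 0.02. mt-Atp8, a subunit of ATP synthase, was the member that did not overlap, at 14308, 10356, 10010, 10998 and 11281 after PCB-153 and 9824, 9232, 9560 and 5296 after vehicle (log2 fold change 0.46 ± 0.16, limma adjusted p = 0.943). Over all tested genes 0.462% were higher after PCB-153 without overlap. The mt-Atp8 gene overlaps mt-Atp6 on the same strand. The 77 nuclear genes of the respiratory chain had a median of 0.02, with 51 higher and 26 lower, and 82 ribosomal protein genes a median of -0.03.

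No stromal gene was called either. Fibroblast and collagen genes had the higher mean in 15 of 19 cases with a median of 0.06, and Col1a1, the main chain of type I collagen, averaged 4734 ± 740 after PCB-153 and 4323 ± 875 after vehicle (SD, n = 5 and 4). Endothelial genes had a median of -0.05 over 16 genes and lymphoid stroma and homing genes of 0 over 13. All 10 smooth muscle genes had the lower mean, within -0.16 to -0.03. The highest median of any list was that of mesothelium, the covering of the spleen, at 0.34 over 8 genes, 7 of them with the higher mean. Msln, its marker mesothelin, had 93.7, 134, 170, 115 and 209 normalised reads after PCB-153 and 90.1, 117, 88.4 and 137 after vehicle, so that PCB-153 replicates 3 and 5 were above every vehicle spleen and the others were within their range.

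**Figure D3:**
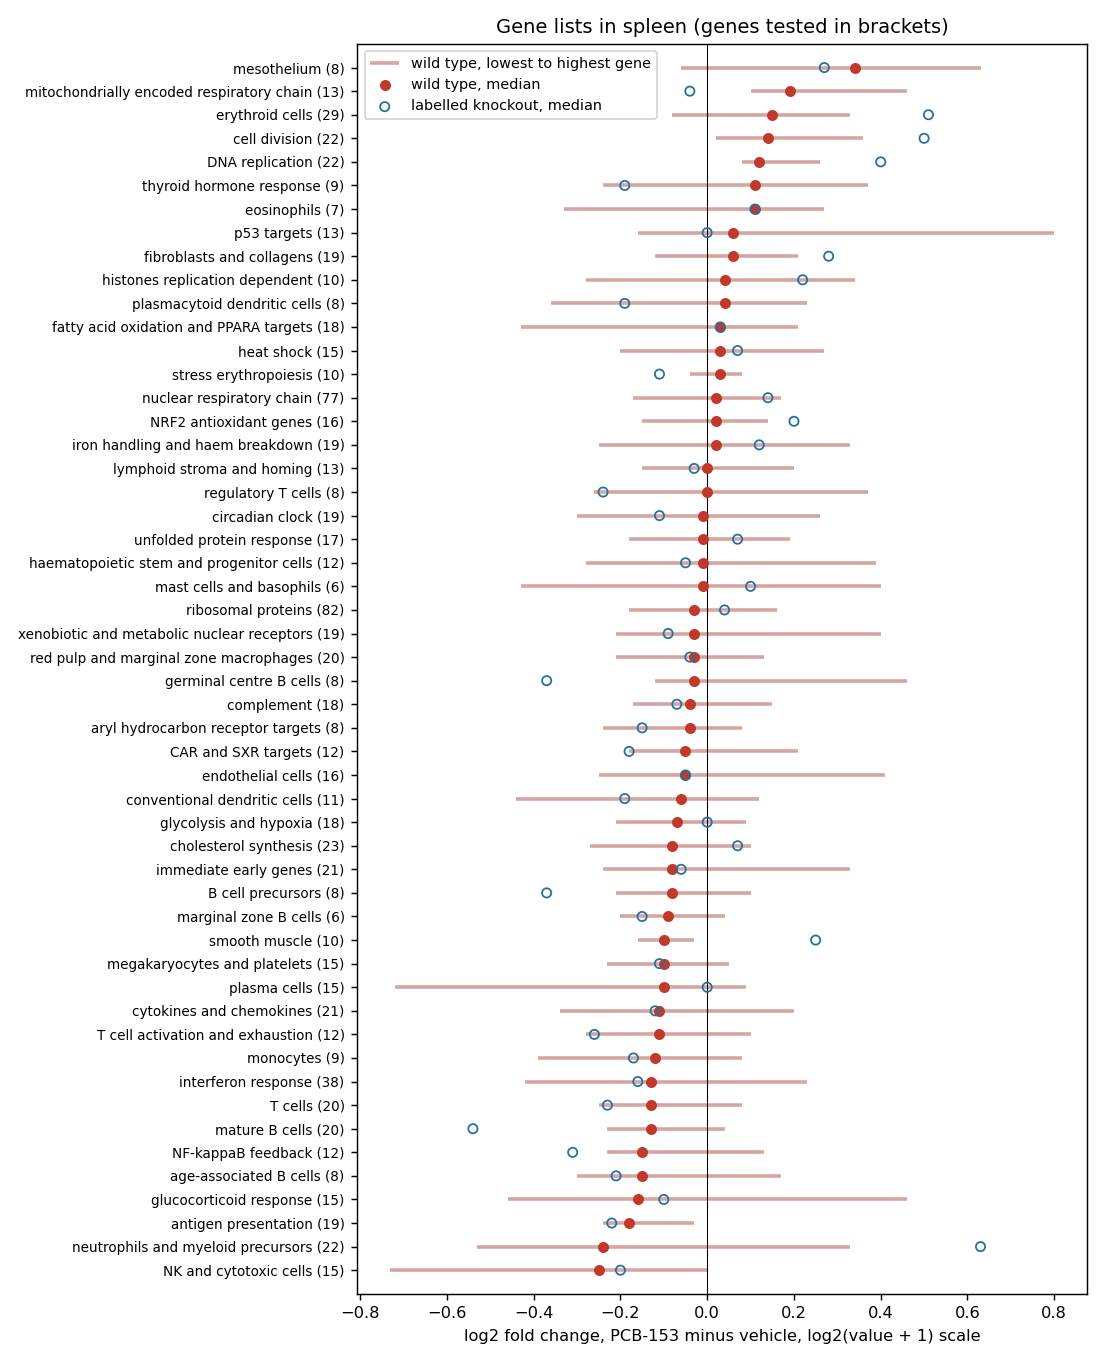
Median log2 fold change of PCB-153 over vehicle (x axis, log2(value + 1) scale) for gene lists with at least 5 tested genes, in wild type (red points, with a bar from the lowest to the highest gene) and in the labelled knockout (open blue points); pancreas, liver and fat lists are left out. Wild-type medians ran from -0.25 for NK and cytotoxic cells to 0.34 for mesothelium, and the neutrophil list is at -0.24 in wild type and 0.63 in the labelled knockout.

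The largest differences in the whole comparison belonged to genes of pigment cells. Melanocytes make melanin in melanosomes with the enzymes tyrosinase (Tyr), Tyrp1 and dopachrome tautomerase (Dct), on a scaffold of Pmel, under the transcription factors Mitf and Sox10. Pigmented cells are known to occur in the spleen of black mice, in some animals and not in others. The promoters of the 3 enzyme genes are shown because these genes were on or off together in the libraries and because each holds the M-box core TCATGTG, the motif by which Mitf is known to act on melanocyte genes. The windows are the 250 bases before the RefSeq start in GRCm38.p6, 5′ to 3′ on the gene's strand, with the motif in capitals in either orientation.
Tyrp1 (chr4:80833963-80834212, plus strand): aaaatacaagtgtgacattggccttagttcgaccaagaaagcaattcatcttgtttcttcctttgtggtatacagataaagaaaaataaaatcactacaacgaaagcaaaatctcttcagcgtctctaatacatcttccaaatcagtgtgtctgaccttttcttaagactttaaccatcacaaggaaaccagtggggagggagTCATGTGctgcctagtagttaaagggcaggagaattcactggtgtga
Dct (chr14:118052247-118052496, minus strand): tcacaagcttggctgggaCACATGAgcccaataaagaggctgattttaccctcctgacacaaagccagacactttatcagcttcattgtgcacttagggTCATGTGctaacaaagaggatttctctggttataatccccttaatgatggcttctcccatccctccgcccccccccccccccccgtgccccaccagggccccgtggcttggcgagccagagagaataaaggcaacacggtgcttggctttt
Tyr (chr7:87493513-87493762, minus strand): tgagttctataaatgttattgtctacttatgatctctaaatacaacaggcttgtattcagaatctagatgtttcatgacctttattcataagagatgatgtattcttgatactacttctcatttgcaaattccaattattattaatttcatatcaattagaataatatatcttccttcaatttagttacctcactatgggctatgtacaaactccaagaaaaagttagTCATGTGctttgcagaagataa
The motif begins 47 bases before the RefSeq start of Tyrp1, 22 before that of Tyr, and 232 and 151 before that of Dct. The GENCODE M21 start of Tyrp1 (chr4:80834123) lies inside the window shown, so by that annotation the Tyrp1 motif is within the gene. The motif is present on either strand in 1068 of 32851 promoter windows of the same length (3.25%). As the 3 promoters were chosen for holding it, that share is no test of them. The promoters of the other pigment genes were not examined. A match is a description of the letters and not evidence of binding in spleen.

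Dct had 2.23, 0.93, 0.91, 0 and 0 normalised reads in the PCB-153 spleens, and 335, 4.18, 519 and 226 in vehicle replicates 1, 3, 4 and 5. Tyrp1 was at 0 in all 5 PCB-153 spleens and at 126, 0, 209 and 88.8 in the vehicle spleens. Thus 3 of 4 vehicle spleens expressed the genes and vehicle replicate 3 was like the exposed ones. In reads, Tyrp1 had 0 over the PCB-153 group and 470 over the vehicle group. With 3 reads standing for 0, the pooled share of each group's total reads was 210-fold lower after PCB-153. That ratio pools the spleens of a group and takes no account of the spread between them. The 95% interval of the limma log2 fold change of Tyrp1 was -8.88 to -1.71, before any adjustment for the number of genes. The limma log2 fold changes were -6.19 ± 1.67 for Dct and -5.3 ± 1.72 for Tyrp1, both with an adjusted p of 0.943.

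Other genes of the same cells followed the same libraries, and those beyond Dct and Tyrp1 were picked after their values were seen. Tyr had 2.23, 0.93, 0.91, 3.61 and 0.67 normalised reads after PCB-153 and 28.6, 2.09, 32.5 and 23.6 after vehicle, and Mlana, a melanosome antigen, was at 0 in every PCB-153 spleen and at 16.5, 0, 31.7 and 11.2 in the vehicle spleens. Both were below the minimum mean for the test. Sox10 had 8.93, 9.32, 9.07, 4.81 and 4.7 after PCB-153 and 24.2, 7.31, 31.7 and 20.2 after vehicle. Of the 9 genes with a lower fitted mean by over 2-fold, 7 were Dct, Tyrp1, Ptgds, Gpnmb, Mlph, Trpm1 and Sox10, all expressed by melanocytes, although Gpnmb is also a macrophage gene. Pmel was counted in every library, at 155, 156, 119, 154 and 165 after PCB-153 and 294, 159, 371 and 252 after vehicle; its gene overlaps Cdk2 and Dgka on the other strand, and no source used here says whether counting used strand, so its level in the low libraries cannot be assigned. Mitf, which other blood cells also express, averaged 82.2 ± 8.78 after PCB-153 and 118 ± 36.1 after vehicle (SD, n = 5 and 4).

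The same on-or-off pattern crossed the exposure in the labelled knockout. Dct was at 3.22, 141, 584, 1.06 and 2.54 normalised reads in the labelled knockout spleens after PCB-153 and at 0, 1.83, 1.01, 0 and 240 in those after vehicle. The pigment genes were thus on in 2 of 5 exposed and 1 of 5 vehicle spleens there, against 0 of 5 exposed and 3 of 4 vehicle spleens in wild type. What set this pattern was not tested.

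**Figure D4:**
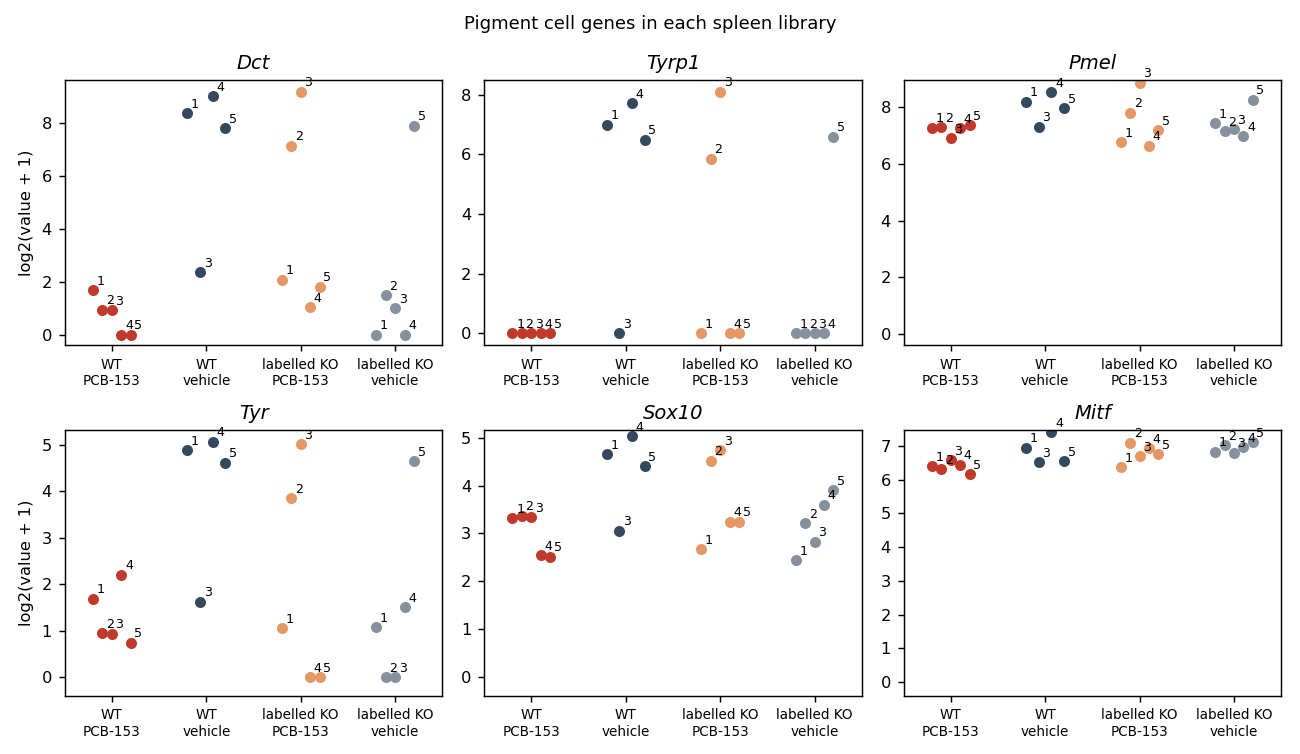
Log2(value + 1) of 6 pigment cell genes (y axes) in each spleen library, with replicate numbers, for wild type after PCB-153 (red), wild type after vehicle (dark grey), labelled knockout after PCB-153 (orange) and labelled knockout after vehicle (light grey). Dct is high in wild-type vehicle replicates 1, 4 and 5, in labelled knockout PCB-153 replicates 2 and 3 and in labelled knockout vehicle replicate 5, and low in the other 13 libraries.

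The authors' deposited table of this comparison lists 4 of 36115 genes (0.0111%) with an adjusted p under 0.05, and each had few or no wild-type reads in at least one of the groups. In that table the log2 fold changes were -24.12 for Tyrp1, -17.55 for Reg1, -21.97 for Try10 and 16.2 for Clps. Reg1, Try10 and Clps encode secreted proteins of the exocrine pancreas, the gland that touches the spleen. In wild type Reg1 had 0 reads after PCB-153 and 3 after vehicle, Try10 had 0 after PCB-153 and 1 after vehicle, and Clps had 2 after PCB-153 and 0 after vehicle. These 3 genes pass a minimum on the mean over the 19 libraries through the labelled knockout spleens alone, where Reg1 reached 2920 normalised reads. DESeq2 on the recovered reads likewise called Tyrp1, Reg1 and Clps. The fold changes of Reg1, Try10 and Clps, with at most 3 reads in either group, cannot be read as the size of a difference, and limma and edgeR called none of them.

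Other neighbouring tissues varied between libraries and not between groups. Alb, the albumin gene of hepatocytes, had 2846, 35.4, 58, 36.1 and 197 normalised reads after PCB-153 and 1008, 23, 386 and 13.5 after vehicle. It was high in PCB-153 replicate 1 and in vehicle replicates 1 and 4. Adipoq, a hormone of fat cells, had 102, 34.5, 107, 109 and 9.4 after PCB-153 and 75.9, 63.7, 2.27 and 55.1 after vehicle. Both genes were counted in all 9 libraries and both groups held high and low ones, and the log2 fold changes were 0.32 ± 1.81 and 0.8 ± 1.05. The exocrine pancreas list lay at a mean log2 level of 1.71 to 2.09 after PCB-153 and 2.02 to 2.15 after vehicle, and 0 of 8 endocrine pancreas genes reached the minimum mean.

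Genes through which PCBs are known to act in liver had no called difference in spleen, and some were too low to be tested. Of 21 genes that are targets of CAR and SXR, 12 reached the minimum mean, with a median log2 fold change of -0.05, 5 higher and 7 lower in mean; the sign of that median was opposite in 10 of 19 alternatives. Cyp2b10, the classic CAR target, had 1.12, 4.66, 3.63, 1.2 and 2.01 normalised reads after PCB-153 and 2.2, 1.04, 6.8 and 3.37 after vehicle, and Cyp3a13, an SXR target, was at 0 to 3.35 after PCB-153 and 0 to 5.22 after vehicle; neither reached the minimum mean. Cyp3a11, the main SXR target of liver, had 198, 0.93, 2.72, 2.41 and 12.1 after PCB-153 and 74.8, 6.26, 19.7 and 0 after vehicle. It was highest in the 3 libraries that were also highest for Alb; the part of liver RNA in these values was not tested. Its sign also depended on the test, at -0.18 ± 1.51 with limma and 0.73 with edgeR.

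Aryl hydrocarbon receptor targets had a median of -0.04 over 8 genes, with 2 higher and 6 lower. Cyp1a1, its most inducible target, had 17.9, 14, 4.53, 13.2 and 10.1 normalised reads after PCB-153 and 11, 11.5, 9.07 and 13.5 after vehicle, and the direction of its difference, -0.02 ± 0.36, was opposite with edgeR (0.08). Cyp1b1, a target that many cell types express, averaged 1288 ± 155 after PCB-153 and 1344 ± 283 after vehicle, with a 95% interval of -0.3 to 0.21 on the log2 scale, and Ahr, the receptor, 349 ± 14.8 after PCB-153 and 314 ± 56.1 after vehicle (SD, n = 5 and 4). The 19 nuclear receptors tested had a median of -0.03. Rara, a retinoic acid receptor, was the 1 of them that did not overlap, at 537, 486, 592, 587 and 584 after PCB-153 and 641, 628, 629 and 683 after vehicle (log2 fold change -0.21 ± 0.11). The share of all tested genes that were lower without overlap was 0.923%. NRF2 antioxidant genes had a median of 0.02 over 16 genes, heat shock genes 0.03 over 15, unfolded protein response genes -0.01 over 17, and p53 targets 0.06 over 13, with 0 called.

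Inflammatory and hormone response lists were also without calls. Interferon response genes had the lower mean after PCB-153 in 32 of 38 cases, with a median of -0.13. Mx1 and Ifit3, both interferon-induced antiviral genes, had unadjusted p-values of 0.0224 and 0.0316, with Mx1 at 228 ± 34.3 after PCB-153 and 291 ± 33.7 after vehicle, and Ifit3 at 462 ± 62 after PCB-153 and 617 ± 117 after vehicle (SD, n = 5 and 4; limma, not called). Herc6, the other gene of this list with an unadjusted p under 0.05, had the opposite sign. PCB-153 replicate 5 and vehicle replicate 3 were the highest libraries of the list, at 9.86 and 9.91 mean log2 units. NF-kappaB feedback genes had the lower mean in 11 of 12 cases with a median of -0.15, cytokines and chemokines in 18 of 21 with a median of -0.11, and glucocorticoid response genes in 12 of 15 with a median of -0.16. Per1, a clock gene that glucocorticoids induce, had 730, 610, 1062, 1322 and 1522 normalised reads after PCB-153 and 1309, 1295, 1119 and 1180 after vehicle, so that PCB-153 replicates 1 and 2 were low while replicates 4 and 5 were above every vehicle spleen.

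Predicted genes, such as those with Gm numbers or Rik names, were left out of the ranking by p. By the smallest unadjusted limma p among the other genes with a mean of at least 50, those with the higher mean after PCB-153 were Runx1t1, Mir8108, Kcnq1ot1, Pmch, Clec11a, Dzip3, Cgrrf1, Rb1cc1, Trim2 and Tmem230. All missed the test, each with an adjusted p of 0.943, and their log2 fold changes were 0.28 to 0.67. Runx1t1 (chr4:13743436-13893649), a transcriptional co-repressor known as the ETO partner in human leukaemia fusions, had 80.3, 70.8, 86.1, 81.8 and 73.2 normalised reads after PCB-153 and 40.7, 61.6, 60.5 and 37.1 after vehicle. Every exposed spleen was above every vehicle spleen, and the log2 fold change was 0.67 ± 0.15. Its unadjusted limma p of 0.000268 was the smallest among the genes ranked. Clec11a, a growth factor of bone and blood progenitors, had 59.1, 55.9, 65.3, 61.3 and 65.1 after PCB-153 and 48.4, 47, 46.9 and 36 after vehicle, again without overlap. Kcnq1ot1, the imprinted RNA antisense to Kcnq1, averaged 248 ± 22.3 after PCB-153 and 188 ± 35.9 after vehicle (SD, n = 5 and 4), and Rb1cc1, an autophagy initiation factor, 1355 ± 120 after PCB-153 and 1080 ± 217 after vehicle. In 8 of the 10 genes, all but Mir8108 and Cgrrf1, vehicle replicate 5 was the lowest library.

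Several of these overlap other genes. Mir8108 lies inside Tacc1 on the same strand, Kcnq1ot1 overlaps Kcnq1 on the other strand and Pmch, a neuropeptide gene, overlaps Parpbp on the other strand; Dzip3, Cgrrf1, Rb1cc1 and Trim2 each overlap 1 predicted or uncharacterised gene. The reads assigned to Mir8108 cannot be told from those of Tacc1, and a library made from messenger RNA does not measure a mature miRNA. For the other genes, how much of the exons is shared was not examined, so some of their reads may belong to the overlapping gene.

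In the same ranking, the genes with the lower mean and the smallest unadjusted p were Dct, Ramp1, Ddx31, Alkbh6, Stx1a, Bbs9, Cnbd2, F13a1, Mir3082 and Apol7b. They too missed the limma test, with an adjusted p of 0.943. Without Dct their log2 fold changes were -0.59 to -0.27. Ramp1 (chr1:91179822-91225196), the receptor partner through which the neuropeptide CGRP acts, had 105, 112, 92.5, 97.4 and 109 normalised reads after PCB-153 and 123, 144, 132 and 164 after vehicle. Ddx31, a helicase of the nucleolus, had 164, 199, 200, 190 and 188 after PCB-153 and 226, 233, 219 and 236 after vehicle. Both were without overlap, with log2 fold changes of -0.44 ± 0.12 and -0.28 ± 0.08. Bbs9, a part of the BBSome of cilia, averaged 145 ± 5.99 after PCB-153 and 187 ± 20.3 after vehicle, and Alkbh6, an AlkB family dioxygenase, 176 ± 27.1 after PCB-153 and 231 ± 19.9 after vehicle (SD, n = 5 and 4). Mir3082 lies inside Stub1 on the same strand and overlaps Jmjd8, so its reads cannot be told from theirs and are no measure of a mature miRNA, and Cnbd2 overlaps 5 genes. Apol7b belongs to a family of near-identical apolipoprotein L genes, among which reads may have been split.

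**Figure D5:**
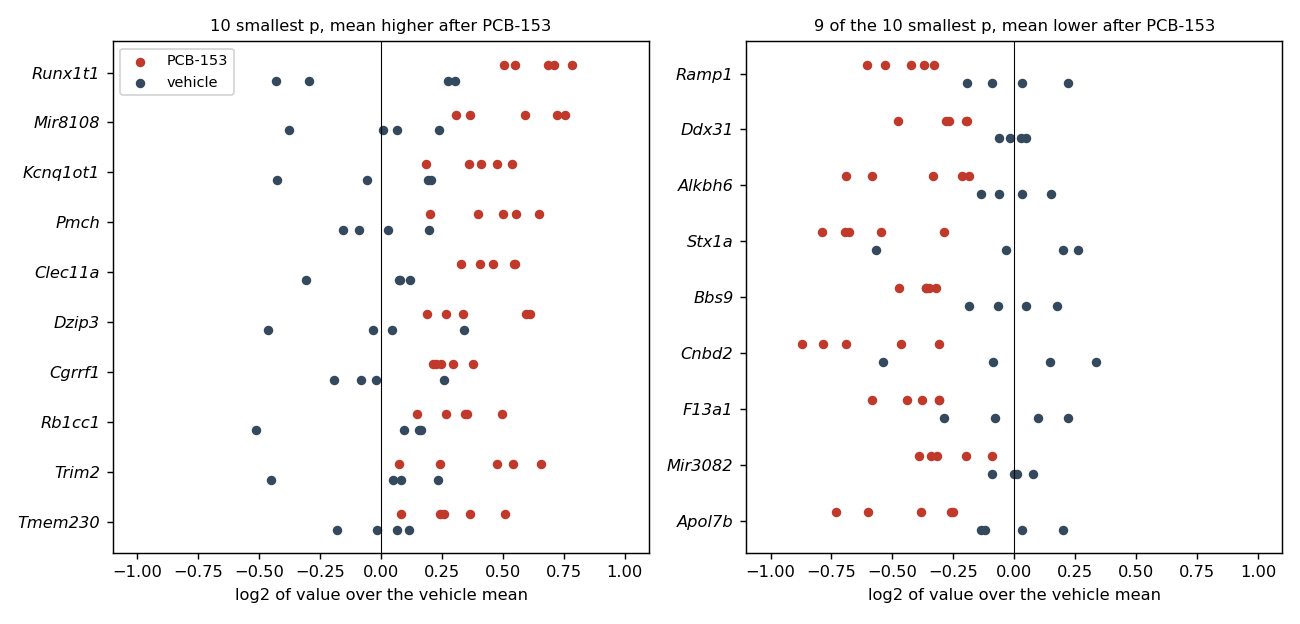
Each wild-type library's normalised read count over the vehicle mean of the gene (x axis, log2) for the genes with the smallest unadjusted p and a mean of at least 50, predicted genes left out. PCB-153 is in red above vehicle in dark grey for each gene. Dct, which is off this scale, is left out of the right panel. The PCB-153 values of Runx1t1, 70.8 to 86.1, lie above the vehicle values, 37.1 to 61.6, and none of the genes was called.

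In the spleens labelled knockout the same exposure gave calls, on libraries that share none with wild type. There 1010 of 19058 genes (5.3%) were called, 530 higher (2.78%) and 480 lower (2.52%) after PCB-153, and edgeR called 982 (5.15%). That count moved widely with single libraries of either group. It was 10, 16 and 42 without PCB-153 replicates 4, 3 and 1, and 3704 and 2224 without PCB-153 replicates 2 and 5. It was 20, 42, 118, 403 and 1089 without vehicle replicates 5, 3, 4, 2 and 1. PCB-153 replicates 1 and 4 stood apart on the first principal component of all spleens. Without both, a choice made after seeing the data, the count was 23. Over all tested genes 48.7% had the higher mean after PCB-153 there. Of these 1010 genes, 760 (75.2%) had the same sign in wild type. The same share over all tested genes was not counted, so whether 75.2% is above it is not known. Over all tested genes the exposure effects in the labelled genotypes had a Spearman correlation of 0.225 and a Pearson correlation of 0.083. In wild type 20 of the 1010 genes had an unadjusted limma p under 0.05, against 3.81% of all tested genes. The 530 genes that rose in the labelled knockout had a median log2 fold change of 0.45 there and of 0.09 in wild type; the 480 that fell had -0.48 in the labelled knockout and -0.05 in wild type. The difference between the genotypes was tested as an interaction, and 0 genes (0.0%) passed under limma, with a smallest adjusted p of 0.417 and 1877 genes (9.85%) at an unadjusted p under 0.05. With edgeR 0 were called (1804, or 9.47%, at an unadjusted p under 0.05), and with DESeq2 34 of 17183 (0.198%).

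Neutrophil genes had opposite signs in the labelled genotypes. Their median log2 fold change was 0.63 in the labelled knockout, with 10 of 22 called higher and 0 lower, and -0.24 in wild type with 0 called. Of the 22 genes 18 had an unadjusted interaction p under 0.05, against 9.85% of all genes, and 0 had an adjusted p under 0.05. S100a9 averaged 2063 ± 451 after PCB-153 and 1284 ± 169 after vehicle in the labelled knockout, and 1745 ± 165 after PCB-153 and 2170 ± 365 after vehicle in wild type (SD). With all libraries the smallest adjusted p of the interaction over all genes was 0.417 (limma). Without labelled knockout PCB-153 replicate 1, S100a9 and Camp passed the interaction test. Leaving out both replicates 1 and 4 was chosen after seeing the data. The genes that then passed were Camp, Chil3, S100a9, Lcn2 and Ngp, all of this list, with limma adjusted p-values of 0.00501 to 0.0338. Erythroid genes had medians of 0.51 in the labelled knockout (19 of 29 called higher) and 0.15 in wild type, and mature B cell genes of -0.54 in the labelled knockout (14 of 20 called lower) and -0.13 in wild type, with 7 and 10 genes at an unadjusted interaction p under 0.05 and 0 called. Without labelled knockout PCB-153 replicates 1 and 4 the labelled knockout medians were 0.41 for erythroid genes, with 0 called, -0.31 for mature B cell genes, with 0 called, and 0.75 for neutrophil genes, with 7 called higher. Mitochondrially encoded genes had a median of -0.04 in the labelled knockout and 0.19 in wild type.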

How the data were processed

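RNA was sequenced from spleens of mice exposed around birth. Per the submitters' processing notes the tools were STAR 2.6.0, FastQC, featureCounts and DESeq2 (given as version 3.8), with build mm10; no source used here gives the annotation or says whether counting used strand. The authors deposited normalised read counts (a signal, reads divided by 1 size factor per library), and tables of their own comparisons with a log2 fold change, a test score and p-values, per the file headers. Symbols that had become dates (26) were restored. Dividing each library by its step recovered whole reads for 100% of values (within 0.05 reads).

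The deposited values were tested as log2(value + 1) with limma 3.58.1 in R 4.3.3, in 1 fit over the 4 spleen groups, two-sided, with Benjamini-Hochberg adjustment over 19058 genes; "called" means an adjusted p under 0.05, and "higher" or "lower" of an uncalled gene describes its mean. A fold change on this scale understates that of low genes. The recovered reads were tested with edgeR 4.0.16 (0 called) and DESeq2 1.42.0 (3 called) as alternatives. The fits were tested on simulated data. Alternatives were other pseudocounts (0.5 and 5), minimum means and scalings, the 2 groups alone, a replicate block and leaving out each library. Replicate numbers were not treated as pairs. The labels do not say that replicates came from separate litters, so p-values measure the spread between these samples. No 2 wild-type libraries of a group were the same library (lowest chi-square per degree of freedom 5.47).

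The comparison and its 57 gene lists were chosen with earlier results of these data known. Predicted genes were left out before genes were ranked by p for naming. Genes named are the 10 with the smallest p in each direction at a mean of at least 50, up to 3 members of the lists with the 6 highest and 6 lowest medians, a set of marker and xenobiotic genes, those passing in the authors' table, and others said to be chosen after their values were seen; Cd4, Cd8a, Klrg1, Alb, H2-D1, H2-Ab1, Lag3, Rara, Mx1, Ifit3, Herc6, Chil3, Lcn2, Ngp, Xist and Ddx3y are also of the last kind. Positions are GENCODE M21 (GRCm38), and promoters are RefSeq GRCm38.p6. Liver was not analysed here.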

Additional observations from a re-analysis of the deposited data

Results flagged for a closer look

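In 310 groups of 4 or 5 libraries examined, 22 had 1 library far from the others of its group, on the log2(value + 1) scale; chance alone flags about 1 group in 20. Among gene lists, the far libraries were PCB-153 replicate 3 for mast cells and basophils (high, 6.07), PCB-153 replicate 1 for CAR and SXR targets (high, 7.39), vehicle replicate 5 for fibroblasts and collagens (high, 9.59) and vehicle replicate 3 for exocrine pancreas (high, 2.15).

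Among genes in the PCB-153 group, Nr1i2 was high in replicate 1 (1.69) and Relb, an NF-kappaB subunit, was low in that library (9.26). In replicate 3 Cd79a was high (12.66) and Pmel low (6.9). Bbs9 was low in replicate 4 (7.08), and Psmb8, an immunoproteasome subunit, was high in replicate 5 (10.87).

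In the vehicle group, replicate 3 was low for Tyrp1 (0), Cd79a (12.54), Cd4 (9.62) and Pf4 (9.17) and high for Try10 (1.03), which is 1 read. Replicate 5 was low for mt-Atp8 (12.37), Clec11a (5.21) and Rb1cc1 (9.57). Replicate 4 was low for the fat cell genes Adipoq (1.71) and Cidec (2.01) and high for Nr1i2 (1.71), and replicate 1 was high for Prf1 (7.23).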

How the results depend on the processing

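The count of 0 genes between PCB-153 and vehicle in wild type held under every limma alternative, with each wild-type library left out, and with edgeR; DESeq2 gave 3, and 3 with no minimum mean (an alternative chosen after seeing the data). The interaction count of 0 was 34 with DESeq2, 31 with DESeq2 and no minimum mean, 5 without both labelled knockout PCB-153 libraries that stood apart (chosen after seeing the data), and 0 to 2 with single libraries left out. The labelled knockout count of 1010 was 232 with no minimum mean, 184 with the 2 groups alone, 23 without those libraries, 2027 with DESeq2, 2026 with DESeq2 and no minimum mean, and 10 to 3704 with single libraries left out; the causes were not tested.

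With the replicate block the wild-type and interaction counts were 0 and the labelled knockout count 813. Same-numbered libraries deviated together with correlations of 0.16, 0.09, 0.08 and 0.23; as 2 of these are under 0.1 and the labels tie no number to a litter or batch, the numbers were not taken as pairs, although 3 of the 4 correlated best with their own.

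Of 1886 values of 100 named genes under alternatives, 1859 kept sign and call, 3 became called (Tyrp1, Reg1 and Clps with DESeq2) and 24 changed sign, 1 of them Try10, whose 1 wild-type read gives no direction. Cyp1a1 (-0.02) was 0.01 with a pseudocount of 5, 0.02 with TMM, 0.08 with edgeR, 0.07 with DESeq2 and -0.19 to 0.26 with libraries left out. Cyp3a11 (-0.18) was 0.26 with the replicate block, 0.73 with edgeR, 0.78 with DESeq2 and -1.3 to 0.78 with libraries left out. With libraries left out, Adipoq was -0.28 to 1.39, Cidec -0.38 to 1.25, Nr1i2 -0.43 to 0.34, Cyp1b1 -0.15 to 0.08 and Alb -0.78 to 1.4. Of 55 list medians, 21 had the opposite sign under at least 1 alternative; with libraries left out, adipocytes were -0.63 to 0.79, hepatocytes -0.78 to 0.66, eosinophils -0.16 to 0.14, exocrine pancreas -0.22 to 0.02 (0.17 with the replicate block) and thyroid hormone response -0.02 to 0.12. Depth limits genes of few reads, such as Reg1, Try10 and Clps.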
